A study of Mus musculus with 4 samples.

Results

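Imprinted genes are transcribed mainly or only from the copy inherited from 1 parent, and 36 mouse genes of this kind were read in embryonic stem (ES) cells with and without depletion of Tex10. They were taken by name from a list of imprinted genes, out of 22739 named genes in the series. All 36 had a row, 4 of them rows that also name other genes (Meg3, Rian, Mirg and Snrpn), and Peg3 and Gnas had 2 rows each, which were summed. By textbook assignment 16 are expressed from the maternal copy, 19 from the paternal copy, and Gnas makes transcripts of both kinds, and together they lie at 17 loci. The values add the transcripts of both parental copies, so which copy made an RNA was not measured. An assignment may hold only in some tissues, as for Ppp1r9a in the placenta, and none was checked in these cells.

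The cells were CCE, an ES line from 129SV mice, kept on gelatin-coated dishes with leukemia inhibitory factor and 15% serum. In 1 group Tex10 was depleted by a short hairpin RNA (shTex10). The control group carried a hairpin against luciferase (shLuci), a firefly gene that mouse cells lack. Each group had 2 libraries of poly(A)-selected RNA from whole cultures of this 1 line, called biological replicates in the series design with nothing more on how they were kept apart, so a p-value weighs a difference only against the spread of these libraries. In such bulk samples, fewer cells that express a gene and less RNA per cell cannot be told apart.

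Imprinting is set in the germ line, where DNA methylation is laid down at imprinting control regions on 1 parental copy only, and it is kept through early development by factors such as ZFP57 with TRIM28, which protect that methylation. Many imprinted genes sit in clusters in which a long non-coding RNA and protein-coding genes are read from opposite parental copies. Several act in fetal and placental growth, and imprints are known to be unstable in cultured ES cells.

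Tex10 measured 77.3 and 82.1 FPKM in shLuci and 11.6 and 13.4 FPKM in shTex10, so 15.7% of the transcript remained. FPKM is a level scaled to transcript length and to the library's mapped fragments. The tables hold no read totals, so the depth behind single values is unknown. Between 11533 and 12003 genes reached 1 FPKM per library, and rows without a gene name held 56.3% to 71.6% of summed FPKM. Genes with a mean of at least 1 FPKM (11883) were tested with limma on log2(FPKM + 1), and a call is a Benjamini-Hochberg adjusted p under 0.05 over all of them. Log2 changes are shTex10 minus shLuci on that scale, which understates the change of low genes.

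Promoters of 3 members and a set of microRNAs are printed for loci at which host or neighbouring transcripts were higher in shTex10. The imprint-keeping protein ZFP57 is known to bind the hexamer TGCCGC when its CpG is methylated. That hexamer, searched on both strands, stood in at least 1 promoter window of 10 of the 29 members that matched the RefSeq table (GRCm38.p6, windows of 300 bases around each start), or 34.5%, against 13.1% of all 27025 genes in the table. Counted by window it was 25.0% of 44 member windows and 11.6% of 32851. Members held a median of 14.5 CpG per 300-base window, against 7 for all windows. The members without a window there were Cdkn1c, Dcn, H19, Impact, Peg10, Rtl1 and Sgce. Of the members called higher in shTex10, Igf2, Meg3, Nap1l5 and Plagl1 had the hexamer, and of those called lower, Grb10 and Snrpn. A match describes these letters and is no binding site. The motif ATGCAAA, part of the site of OCT4, searched on both strands, was found for 1 member, Igf2 (3.45% of matched members against 5.24% of all genes).

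The Nap1l5 window (GRCm38.p6, chr6:58907077-58907376, minus strand) held 2 copies of the hexamer and the Meg3 window (chr12:109540746-109541045, plus strand) held 1 in reverse complement. A further Meg3 window (chr12:109545148-109545447, plus strand) held no copy and 1 CpG, and the window with more CpG is shown. Capitals mark the hexamer.
Nap1l5: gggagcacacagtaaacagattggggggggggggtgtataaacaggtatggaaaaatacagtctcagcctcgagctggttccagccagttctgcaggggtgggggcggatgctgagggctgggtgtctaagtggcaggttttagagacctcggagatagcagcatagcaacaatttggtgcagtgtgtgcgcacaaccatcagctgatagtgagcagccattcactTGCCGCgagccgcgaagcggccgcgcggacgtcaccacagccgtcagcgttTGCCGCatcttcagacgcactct
Meg3: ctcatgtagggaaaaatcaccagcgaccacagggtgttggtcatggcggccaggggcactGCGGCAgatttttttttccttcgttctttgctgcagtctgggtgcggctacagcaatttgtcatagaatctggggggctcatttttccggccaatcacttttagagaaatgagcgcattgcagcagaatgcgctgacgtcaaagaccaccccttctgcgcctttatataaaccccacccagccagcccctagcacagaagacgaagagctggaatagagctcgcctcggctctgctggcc

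Peg3 and Usp29 start head to head, and 263 of the 300 bases of their windows are the same stretch, so 1 sequence stands for both. It is shown because both genes stood higher in shTex10. The Peg3 window (GRCm38.p6, chr7:6730370-6730669, minus strand) held 13 CpG, given in capitals, and no TGCCGC.
Peg3: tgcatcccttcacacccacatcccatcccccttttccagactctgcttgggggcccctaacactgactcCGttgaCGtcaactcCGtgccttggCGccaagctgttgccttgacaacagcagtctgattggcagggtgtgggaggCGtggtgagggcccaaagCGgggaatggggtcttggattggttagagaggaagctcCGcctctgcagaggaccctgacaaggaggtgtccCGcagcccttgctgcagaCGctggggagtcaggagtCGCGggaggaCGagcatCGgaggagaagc

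H19, Meg3 and Mirg are host transcripts of microRNAs. Their mature sequences (RefSeq, GRCm38.p6) are shown because the hosts stood higher in shTex10, with the seed, bases 2 to 8, in capitals. Of these hosts, Mirg did not pass the test (limma adjusted p = 0.103). The poly(A) libraries do not measure mature microRNAs. Hosted by H19 were these.
miR-675-5p: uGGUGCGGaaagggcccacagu
miR-675-3p: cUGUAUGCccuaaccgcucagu
The Meg3 row names Mir1906-1 and Mir770.
miR-1906: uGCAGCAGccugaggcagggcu
miR-770-5p: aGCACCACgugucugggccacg
miR-770-3p: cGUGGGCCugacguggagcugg
The Mirg row names 4 microRNAs, of which 2 are shown.
miR-369-3p: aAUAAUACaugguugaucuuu
miR-410-3p: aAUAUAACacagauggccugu
No pair of these shares a seed.

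Of the 36 members, 29 passed the filter on low values and 7 did not. Of the 29 tested, 14 rose in shTex10, 5 fell and 10 did not pass. Among all genes tested 19.8% were called higher, 31.8% lower and 51.6% in either direction. The members' median log2 change was 0.35, against -0.14 for all genes. Among members of paternal expression 9 of 15 rose, 1 fell and 5 did not pass, at a median of 0.47. Among those of maternal expression 5 of 13 rose, 4 fell and 4 did not pass, at a median of 0.26. The difference between these groups was not tested. One of the 14 that rose, Nap1l5, passed the filter only through its shTex10 values and so had to stand higher.

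**Figure D1:**
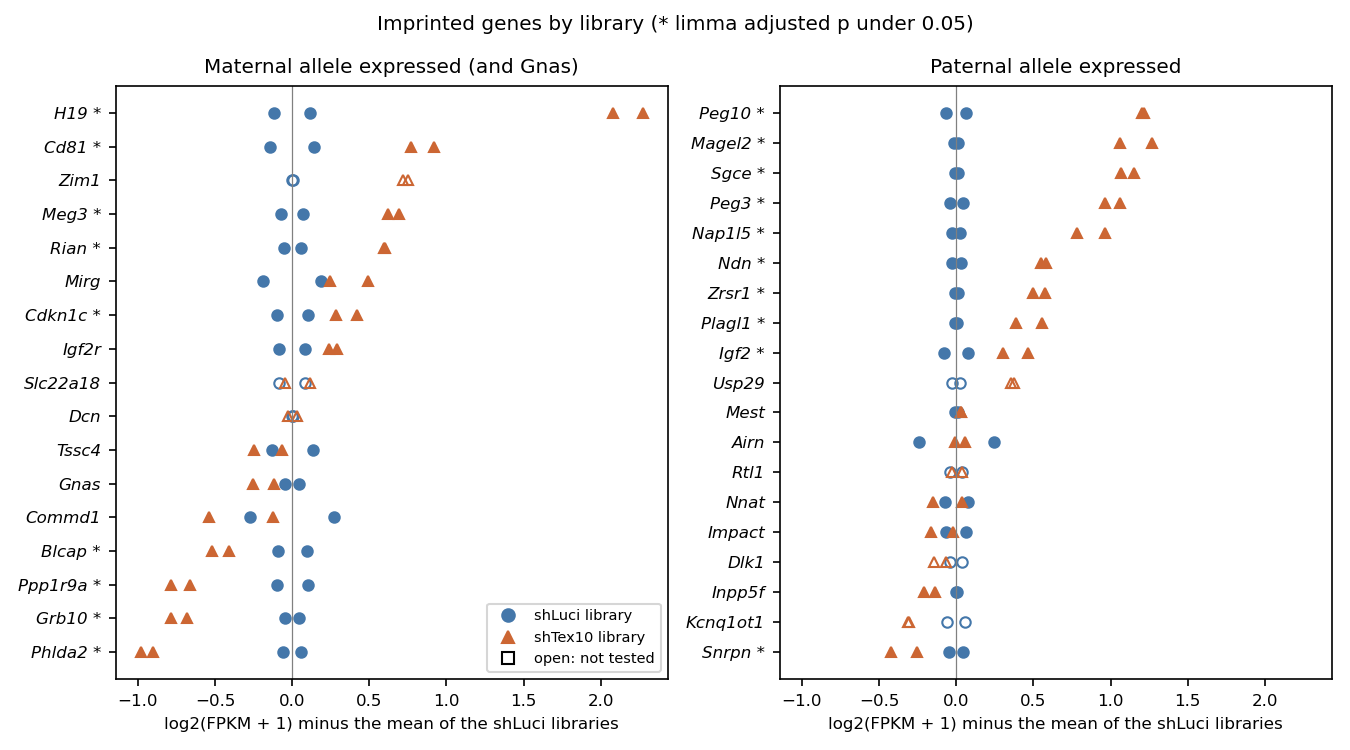
Each row is an imprinted gene and each point a library, plotted as log2(FPKM + 1) minus the mean of the 2 shLuci libraries; circles are shLuci, triangles shTex10, and open symbols mark genes under the filter. The shTex10 points of H19 lie farthest to the right and those of Phlda2 farthest to the left.

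For 17 of the 29 tested members the lower shTex10 value exceeded the higher shLuci value, and for 7 the order was the opposite. Over all tested genes these shares were 28.3% and 48.1%. A rise of at least 1 on the log2 scale was called for 5 members, H19, Peg10, Magel2, Sgce and Peg3, while 5.98% of all genes tested were so called. The members together took 0.184% and 0.173% of the summed FPKM of named genes in shLuci and 0.293% and 0.278% in shTex10. Of the rise of 406 FPKM in their summed mean, H19, Peg10 and Cd81 made up 401 FPKM and all other members a net 5.10 FPKM. In that net value rises and falls offset each other, such as those of Peg3 (means of 32.3 and 66.2 FPKM in shLuci and shTex10) and Phlda2 (44.6 and 22.8 FPKM). The sum over named genes was itself lower in shTex10, at 525878 and 537692 FPKM against 613642 and 632067 FPKM in shLuci.

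With each library brought to the same sum over named genes, 16 members were called higher and 3 lower, so that 84.2% of the members' calls were higher, against 73.7% as deposited. For all genes the share was 62.9% against 38.3%, and their median moved from -0.14 to 0.06. Relative to the median of all genes, the members' median stayed between 0.47 and 0.49 under the 4 other scalings. With the same sum over all rows, unnamed ones included, the members' median SE grew from 0.10 to 0.44. Then 3 members were called, H19, Magel2 and Nap1l5, all higher, and Nap1l5 had passed the filter only through shTex10. Each of the 19 called members had the same sign under all 4 scalings.

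H19 had the largest change of the members. H19, a non-coding RNA of the maternal copy that restrains growth (mm9 chr7:149761416-149764051, XLOC_025651), measured 44.4 and 37.6 FPKM in shLuci and 201 and 176 FPKM in shTex10. The groups did not overlap. H19 rose 4.59-fold, from 41.0 ± 4.80 FPKM to 188 ± 18.2 FPKM (SD, n = 2), and the log2 change was 2.17 (SE 0.12, limma adjusted p = 0.000221). This change ranked 85 from the top of 11883 genes.

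Igf2, the fetal growth factor gene that is read from the paternal copy of the same locus (chr7:149836671-149856261), measured 61.9 and 55.6 FPKM in shLuci and 81.2 and 72.7 FPKM in shTex10. Igf2 rose less than H19, 1.31-fold (log2 change 0.38, SE 0.10, limma adjusted p = 0.0260). The log2 change of Igf2 ran from 0.31 to 0.46 when 1 library at a time was left out. Igf2as, a transcript whose row overlaps Igf2, stood at 0.868 and 0.848 FPKM in shLuci and 2.73 and 2.29 FPKM in shTex10 and was called higher (log2 change 0.91, SE 0.10), having reached the filter only through shTex10. The sources used here do not give the treatment of strand, so reads of Igf2 and Igf2as may not be told apart. H19 made up 41.8% and 40.4% of the sum of H19 and Igf2 in shLuci and 71.3% and 70.7% in shTex10. The order of these neighbours was thus Igf2 above H19 in each shLuci library and H19 above Igf2 in each shTex10 library.

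The cell surface and growth restraint genes of the neighbouring Kcnq1ot1 domain went in both directions. Cd81, a tetraspanin gene (chr7:150218525-150253835), measured 160 and 131 FPKM in shLuci and 276 and 248 FPKM in shTex10. Cd81 rose 1.80-fold (log2 change 0.85, SE 0.13, limma adjusted p = 0.00362). Cdkn1c, the gene of the cyclin-dependent kinase inhibitor p57, measured 29.9 and 25.9 FPKM in shLuci and 37.6 and 34.1 FPKM in shTex10. Its rise was small (log2 change 0.35, SE 0.11, limma adjusted p = 0.0401) and lost its call with no filter on low values (limma adjusted p = 0.0606). The change ran from 0.25 to 0.45 when 1 library at a time was left out.

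Phlda2, which restrains placental growth (chr7:150687452-150688429), fell, although it belongs to the same maternally expressed group as Cdkn1c. It measured 46.5 and 42.7 FPKM in shLuci and 23.4 and 22.1 FPKM in shTex10, 51.0% of the shLuci mean (log2 change -0.94, SE 0.09, limma adjusted p = 0.00101). The shTex10 values lay far below both shLuci values. Phlda2 was above Cdkn1c in both shLuci libraries, at 1.55 and 1.65 times its FPKM, and below it in both shTex10 libraries, at 0.623 and 0.647 times. The call was not reached by Tssc4, with 24.2 and 20.0 FPKM in shLuci and 20.9 and 18.4 FPKM in shTex10, and its groups overlapped.

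Kcnq1ot1, the paternal non-coding RNA that silences this domain in cis, was under the filter. It measured 0.672 and 0.814 FPKM in shLuci and 0.409 and 0.404 FPKM in shTex10, with no overlap. Slc22a18, a transporter gene, stayed between 0.645 and 0.886 FPKM in the 4 libraries and its groups overlapped. Neither was tested in the fit with the filter. In a fit without it Kcnq1ot1 was called lower (log2 change -0.31, SE 0.06, limma adjusted p = 0.0206).

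Genes around this part of distal chromosome 7 were also mostly higher, a region looked at after the values of its members were seen. Within 300 kb of the stretch from H19 to Phlda2, 13 other genes were tested, of which 10 rose, 1 fell and 2 did not pass. Of all genes tested 19.8% were called higher and 31.8% lower. Among the 13, 4 are themselves on a list of further imprinted genes read below, namely Ascl2, Tspan32, Osbpl5 and Nap1l4. Igf2as and R74862 among them overlap rows of members, and Igf2as and Tnnt3 reached the filter only through shTex10, so these 2 of the 10 had to differ. Ascl2, an imprinted transcription factor gene of the trophoblast, rose by 2.02 on the log2 scale (SE 0.16), and Tspan32, Osbpl5, Cars, Tnnt3, Lsp1, Ctsd and Tnfrsf23 rose by between 0.49 and 1.07. Lsp1 and Tnnt3 share 1 interval in the files. Tnfrsf22 fell, by 0.63 (SE 0.09), and Mrpl23 and Nap1l4 did not pass.

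**Figure D2:**
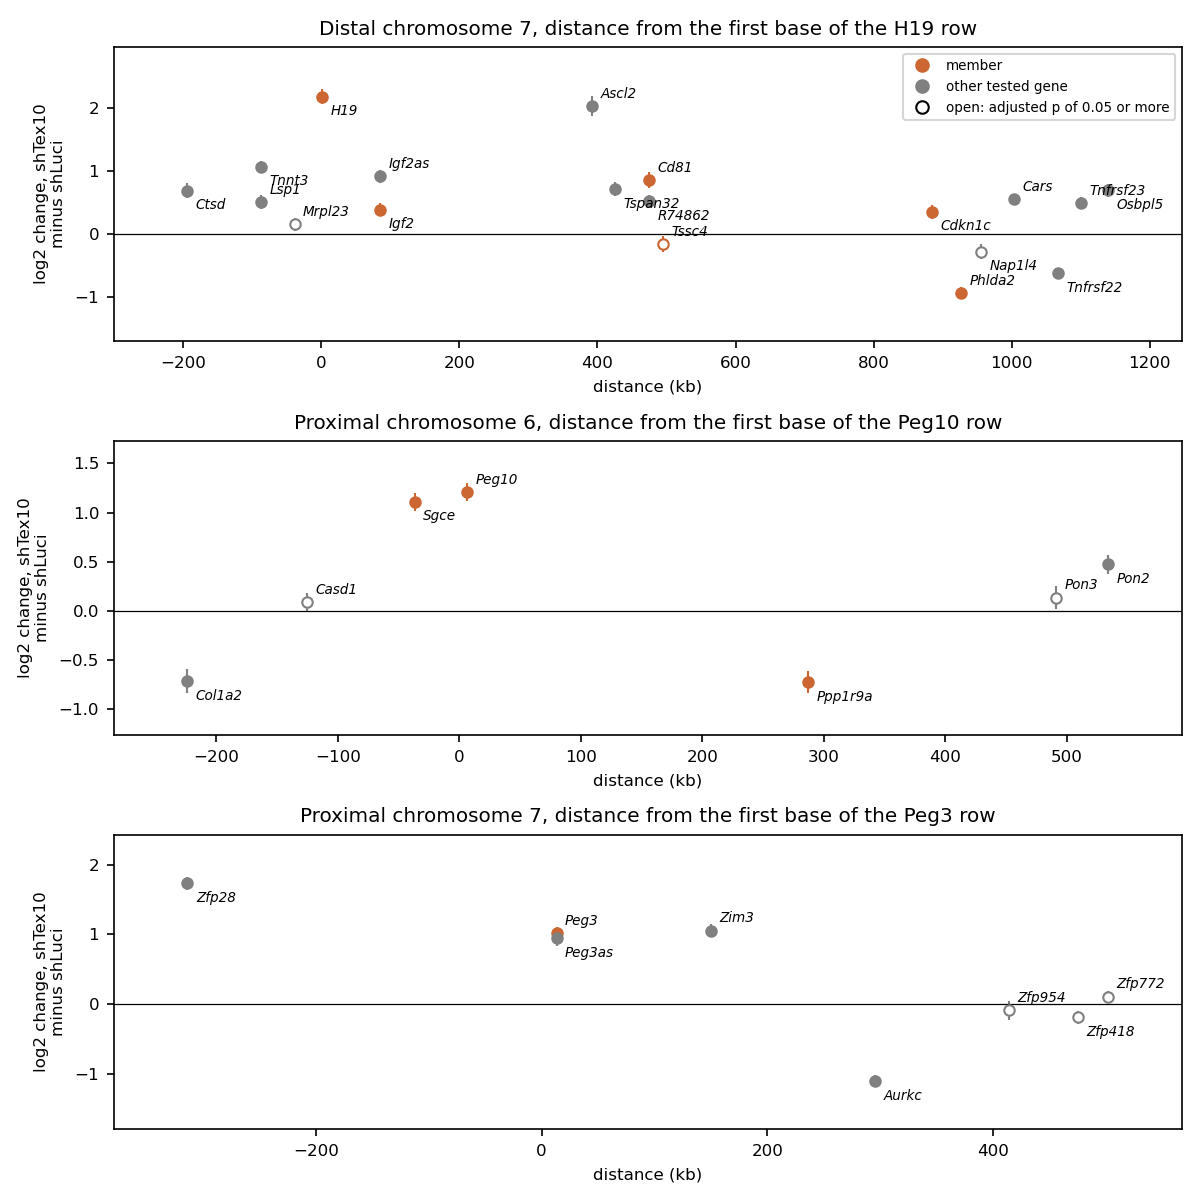
Log2 change (shTex10 minus shLuci, bars SE) of each tested gene against the distance in kb of its midpoint from the first base of the H19, Peg10 or Peg3 row; orange marks members and grey other genes, with open symbols for genes that did not pass the test. H19 and Ascl2 are the highest points of the distal chromosome 7 panel, and Phlda2 the lowest.

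Paternally expressed genes at the Peg10 locus rose together. Peg10, a gene derived from a retrotransposon and needed for the placenta (mm9 chr6:4697305-4710519), measured 108 and 99.1 FPKM in shLuci and 242 and 240.0 FPKM in shTex10. Peg10 rose 2.32-fold (log2 change 1.21, SE 0.09, limma adjusted p = 0.000440). Its neighbour Sgce, the gene of epsilon-sarcoglycan, starts next to Peg10 on the other side (chr6:4624349-4697204) and measured 3.33 and 3.27 FPKM in shLuci and 8.002 and 8.57 FPKM in shTex10. Sgce rose 2.51-fold (log2 change 1.11, SE 0.09, limma adjusted p = 0.000591). The level of Peg10 was 32.6 and 30.3 times that of Sgce in shLuci and 30.2 and 28.0 times in shTex10.

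Ppp1r9a, a gene of an actin-binding protein that is expressed mainly from the maternal copy in the placenta (chr6:4852970-5115661), fell at the same locus. It measured 4.81 and 5.68 FPKM in shLuci and 2.62 and 2.94 FPKM in shTex10 (log2 change -0.72, SE 0.11, limma adjusted p = 0.00408). Ppp1r9a thus stood above Sgce in both shLuci libraries and below it in both shTex10 libraries. Of the nearest tested genes outside the members on either side, Casd1 had a log2 change of 0.09 (SE 0.10) and Pon3 of 0.14 (SE 0.12), and neither passed. Pon3 reached the filter only through shTex10. Of the 4 other genes tested within 300 kb, the remaining ones were Pon2, which rose by 0.48 (SE 0.10), and Col1a2, which fell by 0.71 (SE 0.12). Casd1, Pon3 and Pon2 are on the list of further imprinted genes.

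At the Peg3 locus on proximal chromosome 7 all 3 members were higher in shTex10. Peg3, the gene of a zinc finger protein of the paternal copy (chr7:6656551-6683130), measured 31.3 and 33.3 FPKM in shLuci and 64.1 and 68.4 FPKM in shTex10. It rose 2.05-fold (log2 change 1.01, SE 0.09, limma adjusted p = 0.000745). Both rows named Peg3 moved alike, 1 from 17.2 and 18.5 to 35.0 and 40.7 FPKM and the other from 14.1 and 14.8 to 29.0 and 27.7 FPKM. The antisense transcript Peg3as, which overlaps them, stood at 18.2 and 21.3 FPKM in shLuci and 37.4 and 40.2 FPKM in shTex10 (log2 change 0.95, SE 0.11), and without known strand these rows may share reads.

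Usp29, a ubiquitin protease gene that shares its start region with Peg3, measured 0.0992 and 0.141 FPKM in shLuci and 0.449 and 0.433 FPKM in shTex10. Zim1, a zinc finger gene of the maternal copy, measured 0.437 and 0.430 FPKM in shLuci and 1.41 and 1.36 FPKM in shTex10. Both were under the filter, and neither overlapped between groups. In the fit without a filter both were called higher (limma adjusted p = 0.00487 for Usp29 and 0.00308 for Zim1). Zim3, a further gene of this domain, rose from 0.610 and 0.754 FPKM to 2.41 and 2.57 FPKM (log2 change 1.05, SE 0.10) and passed the filter only through shTex10. The nearest tested gene beyond Usp29, Aurkc, fell by 1.10 (SE 0.09), and Zfp28, the nearest before Zim1, rose by 1.73 (SE 0.09).

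In the Snrpn domain, which corresponds to the region of Prader-Willi syndrome in humans, the members divided by gene. Snrpn, the gene of a spliceosomal protein (chr7:67114011-67285105, in a row with Snurf), measured 110 and 117 FPKM in shLuci and 84.4 and 95.2 FPKM in shTex10. Its fall was small (log2 change -0.34, SE 0.10, limma adjusted p = 0.0340). The call was lost under median scaling (limma adjusted p = 0.0823), quantile normalization (0.588, log2 change -0.06) and the same sum over named genes (0.353, log2 change -0.11). Leaving out 1 library at a time gave log2 changes from -0.42 to -0.25.

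Ndn, the gene of necdin, and Magel2, a ubiquitin ligase cofactor gene, both rose. Ndn measured 5.91 and 5.65 FPKM in shLuci and 9.15 and 8.94 FPKM in shTex10 (log2 change 0.57, SE 0.09, limma adjusted p = 0.00430). Magel2 measured 1.86 and 1.91 FPKM in shLuci and 5.95 and 5.01 FPKM in shTex10, a 2.91-fold rise (log2 change 1.16, SE 0.11, limma adjusted p = 0.000820). The replicates of each group lay close together for both genes. Mkrn3, the nearest tested gene on the far side, rose by 0.28 (SE 0.09), and Peg12, of the same domain, did not pass (0.07, SE 0.10).

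The maternally expressed non-coding RNAs of the Dlk1-Meg3 locus on chromosome 12 were higher in shTex10. Silencing of this cluster is a known mark of mouse ES and induced pluripotent lines with poor developmental potential. Meg3 (chr12:110779147-110809939) measured 26.2 and 23.6 FPKM in shLuci and 40.7 and 38.7 FPKM in shTex10. Meg3 rose 1.60-fold (log2 change 0.65, SE 0.10, limma adjusted p = 0.00339). Rian, which hosts small nucleolar RNAs (chr12:110838083-110900069), measured 18.0 and 16.6 FPKM in shLuci and 26.8 and 26.7 FPKM in shTex10. Rian rose 1.54-fold (log2 change 0.60, SE 0.09, limma adjusted p = 0.00369).

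Mirg, the host of a microRNA array (chr12:110973190-110987742), stood at 3.17 and 2.22 FPKM in shLuci and 4.14 and 3.33 FPKM in shTex10. The groups lay side by side without overlap, and Mirg did not pass (log2 change 0.37, SE 0.16, limma adjusted p = 0.103). Its log2 change ran from 0.18 to 0.55 when 1 library at a time was left out. Between Meg3 and Mirg, 48 rows are named for a microRNA alone, and 47 of them are listed at 0 in every library, so the locus was seen through its host transcripts.

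The paternal genes of this locus were barely detected. Dlk1, the gene of a Notch-like protein of fetal tissues, measured 0.777 and 0.879 FPKM in shLuci and 0.744 and 0.658 FPKM in shTex10, and Rtl1, derived from a retrotransposon, lay between 0.103 and 0.162 FPKM in the 4 libraries. Neither reached the filter. Meg3, Rian and Mirg made up 98.1% and 97.7% of the summed FPKM of the locus's 5 members in shLuci and 98.8% and 98.9% in shTex10. The nearest tested genes to either side, Begain and Dio3, which are also described as imprinted, were higher, Begain by 1.43 (SE 0.16) and Dio3 by 1.19 (SE 0.13) on the log2 scale.

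**Figure D3:**
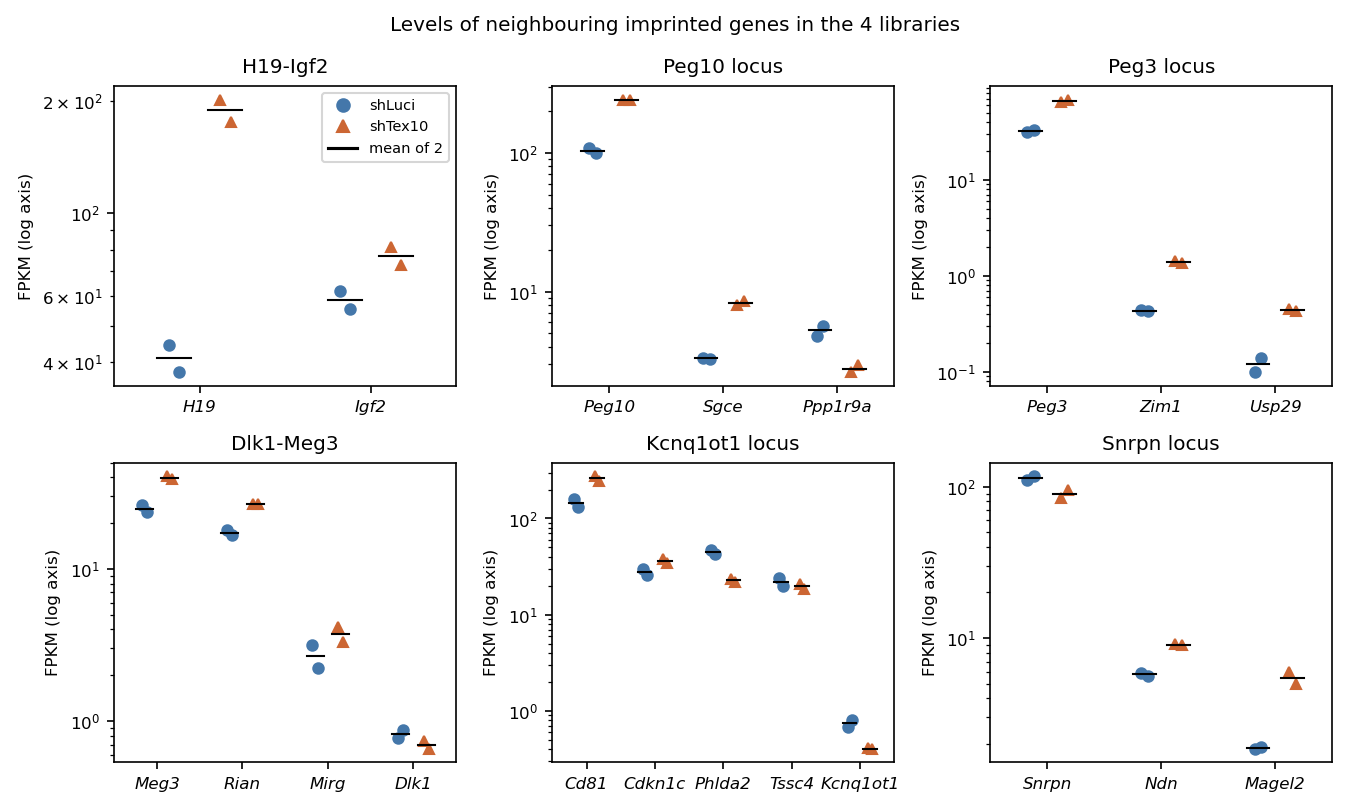
FPKM of neighbouring imprinted genes at 6 loci on log axes, with circles for shLuci libraries, triangles for shTex10 libraries and a line at the mean of 2. H19 moves from below to above Igf2, while Peg10 and Sgce are shifted up and Ppp1r9a down.

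Of the paternally expressed members at other loci, 3 rose. Plagl1, a zinc finger gene that regulates other imprinted genes (chr10:12810567-12851501), measured 4.32 and 4.36 FPKM in shLuci and 6.85 and 5.98 FPKM in shTex10 (log2 change 0.47, SE 0.10, limma adjusted p = 0.0120). Zrsr1, a splicing factor gene that lies inside an intron of Commd1, measured 6.16 and 6.07 FPKM in shLuci and 9.06 and 9.60 FPKM in shTex10 (log2 change 0.54, SE 0.09, limma adjusted p = 0.00537). Nap1l5, a gene of the nucleosome assembly protein family inside Herc3, measured 0.598 and 0.656 FPKM in shLuci and 1.80 and 2.18 FPKM in shTex10 (log2 change 0.88, SE 0.10, limma adjusted p = 0.00167). The groups of each did not overlap, but Nap1l5 reached the filter only through shTex10 and so had to stand higher. Herc3, the host of Nap1l5, rose by 0.37 (SE 0.09).

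The paternally expressed Mest, Impact, Nnat, Inpp5f and Airn did not pass. Mest, the gene of a hydrolase-like protein, measured 65.5 and 66.3 FPKM in shLuci and 67.2 and 67.3 FPKM in shTex10 (log2 change 0.03, SE 0.08), though with the same sum over named genes it was called higher (0.25, limma adjusted p = 0.0488). Impact, a regulator of translation, measured 104 and 114 FPKM in shLuci and 96.7 and 107 FPKM in shTex10 (log2 change -0.09, SE 0.10). Nnat, a membrane proteolipid gene of neurons, measured 15.4 and 13.8 FPKM in shLuci and 15.0 and 13.1 FPKM in shTex10 (log2 change -0.06, SE 0.11). Inpp5f, a phosphatase gene, had 6.58 and 6.55 FPKM in shLuci and 5.56 and 5.86 FPKM in shTex10 (log2 change -0.17, SE 0.09).

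Grb10 and Blcap were the other members assigned to the maternal copy that fell. Grb10, an adaptor that dampens insulin and IGF signals (chr11:11830452-11937423), measured 36.1 and 38.6 FPKM in shLuci and 21.2 and 22.9 FPKM in shTex10, 59.1% of the shLuci mean (log2 change -0.73, SE 0.09, limma adjusted p = 0.00215). Cobl, the nearest tested gene on 1 side of Grb10, fell by 1.31 (SE 0.09), and Ddc, on the other side, did not pass (-0.45, SE 0.15). Blcap, a gene of a small apoptosis-linked protein in whose intron Nnat lies, measured 15.9 and 13.9 FPKM in shLuci and 10.9 and 10.1 FPKM in shTex10 (log2 change -0.47, SE 0.11, limma adjusted p = 0.0149). The call of Blcap was lost with the same sum over named genes (limma adjusted p = 0.131). Its log2 change ran from -0.56 to -0.37 when 1 library at a time was left out.

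Igf2r, which clears IGF2 from the cell surface, and its paternal antisense RNA Airn share a stretch of chromosome 17 (12875132 to 13061009). Igf2r measured 22.0 and 19.5 FPKM in shLuci and 25.5 and 24.6 FPKM in shTex10 and did not pass (log2 change 0.26, SE 0.10, limma adjusted p = 0.0680). It passed under median scaling (limma adjusted p = 0.0336), quantile normalization (0.0241) and the same sum over named genes (0.0166). Airn measured 1.58 and 2.61 FPKM in shLuci and 2.18 and 2.04 FPKM in shTex10, so that the spread within shLuci covered both shTex10 values.

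Commd1, a copper-handling gene, measured 51.0 and 74.7 FPKM in shLuci and 42.1 and 56.7 FPKM in shTex10, with overlapping groups (log2 change -0.33, SE 0.22, limma adjusted p = 0.251). The log2 change of Commd1 ran from -0.60 to -0.06 when 1 library at a time was left out. Gnas, the gene of the stimulatory G protein alpha subunit, measured 114 and 107 FPKM in shLuci and 102 and 93.0 FPKM in shTex10 over its 2 rows and did not pass (-0.18, SE 0.09). Nespas, the paternal antisense RNA of that locus, fell from 2.37 and 2.40 FPKM to 1.36 and 1.43 FPKM (log2 change -0.50, SE 0.09, limma adjusted p = 0.00598). Dcn, the proteoglycan gene decorin, lay between 0.148 and 0.194 FPKM and was not tested.

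A list of 42 further genes described as imprinted was read in the same way. Of 40 with a row, 27 were tested, of which 11 rose (40.7%), 5 fell (18.5%) and 11 did not pass. Of all genes tested 19.8% were called higher and 31.8% lower. The list's median log2 change was 0.09, against -0.14 for all genes. Of the 11, Gatm, Qpct and Zim3 reached the filter only through shTex10, and of the 5, Atp10a only through shLuci, so these had to differ. The 4 with the smallest p were Ascl2, which rose from 1.57 and 1.17 FPKM to 9.94 and 7.43 FPKM, Zim3, Dio3 and Atp10a. Atp10a, a lipid flippase gene, fell from 1.68 and 1.65 FPKM to 0.491 and 0.436 FPKM (log2 change -0.87, SE 0.09). With the same sum over named genes 12 were called higher and 3 lower. At a mean of at least 5 FPKM, 14 genes of the list were tested, of which 2 were called higher and 3 lower. Their median log2 change was then -0.18, close to the -0.20 of all genes at that filter. The nearest tested genes on both sides of the 17 loci, chosen after member values were seen, came to 34. Of these 20.6% rose and 32.4% fell, close to the shares of all genes. The 9 of them that are on the list of further imprinted genes held 5 of the 7 that rose, and of the 25 others 2 rose and 11 fell.

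Transcripts on a list of regulators of imprints mostly fell. The list holds factors that write, keep or erase methylation, and also chromatin and DNA-binding genes such as Ctcf, Smchd1, Ezh2 and Zfp42. Of 26 listed, all were tested, 19 fell (73.1%), 2 rose (7.69%) and 5 did not pass, at a median log2 change of -0.61. Of all genes tested 31.8% were called lower and 19.8% higher, at a median of -0.14. The lower count was 16 under median scaling, 13 under quantile normalization and 14 with the same sum over named genes. Zfp57, the zinc finger gene that marks imprinted regions for protection, measured 194 and 213 FPKM in shLuci and 116 and 127 FPKM in shTex10 (log2 change -0.74, SE 0.10, limma adjusted p = 0.00254). Its partner Trim28 measured 781 and 648 FPKM in shLuci and 444 and 364 FPKM in shTex10 (-0.82, SE 0.14), a call lost under quantile normalization (limma adjusted p = 0.142). Uhrf1, which brings DNMT1 to replicated DNA, fell from 142 and 115 FPKM to 59.0 and 52.0 FPKM (-1.19, SE 0.13).

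The maintenance methyltransferase gene Dnmt1 fell less, from 68.0 and 66.1 FPKM to 55.0 and 53.5 FPKM (-0.30, SE 0.08, limma adjusted p = 0.0284). Its call was lost under median scaling, quantile normalization and the same sum over named genes (limma adjusted p = 0.0685, 0.437 and 0.509). Its log2 change ran from -0.32 to -0.28 when 1 library at a time was left out. Ctcf, the insulator protein gene that binds the unmethylated H19 control region, fell from 70.9 and 82.0 FPKM to 41.2 and 48.8 FPKM (-0.75, SE 0.12). Smchd1, a chromatin gene needed at some imprinted clusters, had the largest fall of the list, from 18.0 and 20.7 FPKM to 5.45 and 5.82 FPKM (-1.61, SE 0.11). Tet1 and Tet2, 5-methylcytosine oxidases, fell by 0.89 and 0.87 (SE 0.08 each). The 2 that rose were Dppa3, whose protein shields maternal imprints in the zygote, from 13.6 and 13.3 FPKM to 32.3 and 35.2 FPKM (log2 change 1.26, SE 0.09), and Dnmt3l, a cofactor of de novo methylation (0.73, SE 0.10). The files hold no methylation values, and the part of these genes in the members' changes was not tested.

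**Figure D4:**
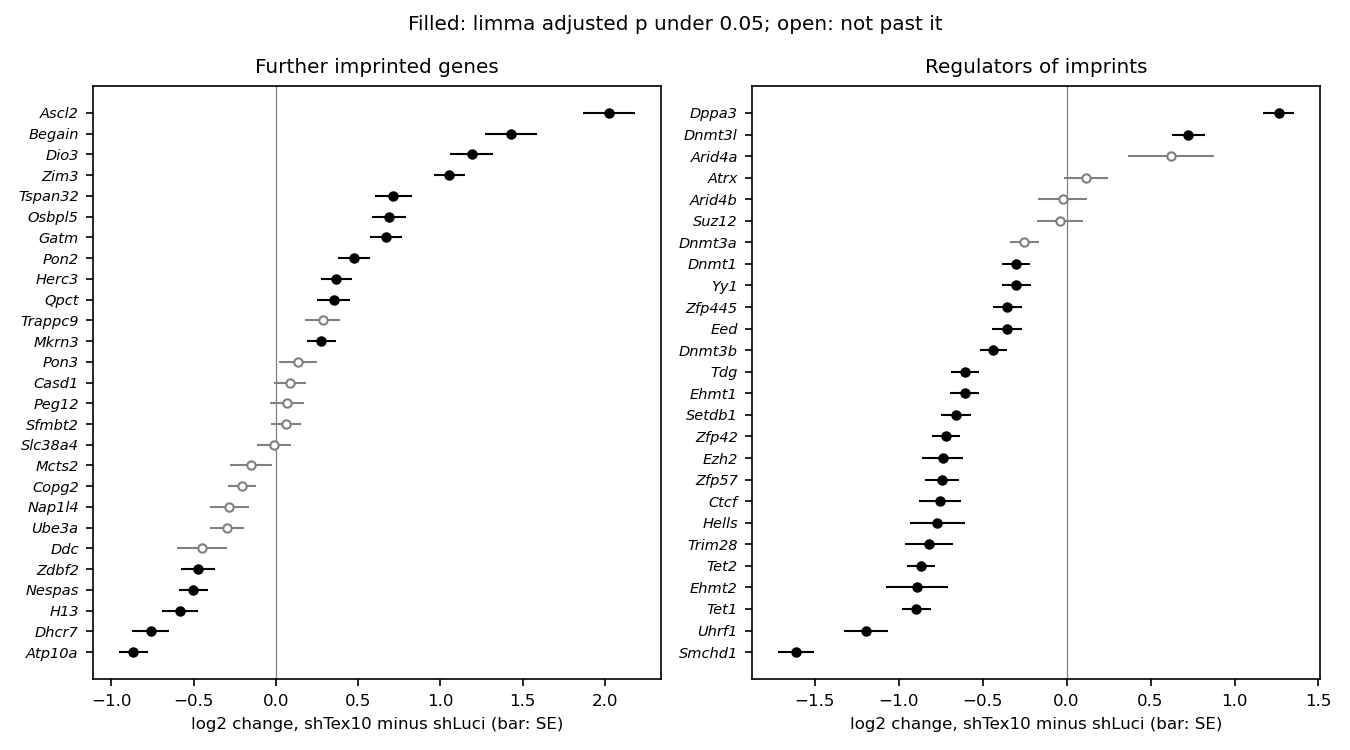
Log2 change (shTex10 minus shLuci, bars SE) of the tested genes of the list of further imprinted genes (left) and of the list of regulators of imprints (right), with filled points past the test. Ascl2 at 2.02 and Atp10a at -0.87 bound the left panel, and 19 filled points lie below 0 in the right panel.

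Of 15 genes that act with Igf2, Igf2r and Grb10 in insulin-like growth factor signalling, 13 were tested, of which 3 rose (23.1%), 6 fell (46.2%) and 4 did not pass, where 19.8% and 31.8% of all genes were so called. The lower count was 3 under median scaling and with the same sum over named genes. Igf2bp2 and Igf2bp3, genes of proteins that bind Igf2 mRNA, fell, the first from 35.2 and 37.0 FPKM to 9.48 and 9.43 FPKM and the other from 24.2 and 28.3 FPKM to 10.2 and 12.1 FPKM. Among genes of IGF-binding proteins, Igfbp5 fell from 3.10 and 3.03 FPKM to 1.38 and 1.34 FPKM, and Igfbp6 rose from 0.710 and 0.827 FPKM to 1.86 and 1.88 FPKM, having reached the filter only through shTex10. Igf1r, the signalling receptor gene, fell from 4.11 and 3.51 FPKM to 2.81 and 2.80 FPKM (log2 change -0.34, SE 0.10, limma adjusted p = 0.0377). Igf2bp1 fell from 76.6 and 79.1 FPKM to 64.6 and 56.0 FPKM (-0.37, SE 0.10, limma adjusted p = 0.0280). Leaving out 1 library at a time, the log2 change ran from -0.43 to -0.25 for Igf1r and from -0.47 to -0.27 for Igf2bp1. Both calls were lost under median scaling (limma adjusted p = 0.0610 and 0.0554) and with the same sum over named genes (0.276 and 0.319). That of Igf1r was also lost with no filter (limma adjusted p = 0.0784) and that of Igf2bp1 under quantile normalization (0.294).

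Markers of other cell types, some of which express imprinted genes strongly, were read in the same libraries. The counts below stand beside 19.8% called higher and 31.8% called lower among all genes tested. All 12 tested trophoblast markers of 18 rose, among them Gcm1, Tfap2c, Krt8 and Gata2, and the summed level of all 18 went from 278 and 286 FPKM in shLuci to 623 and 617 FPKM in shTex10. Krt8 and Krt18, keratins of simple epithelia in general, made up 84.6% to 87.2% of that sum in each library, and the other 16 summed to 38.8 and 36.5 FPKM in shLuci and 96.0 and 94.5 FPKM in shTex10. Gcm1, Tfap2a and Plac1 among the 12 reached the filter only through their shTex10 values, so these had to stand higher. Of the 6 trophoblast markers not tested, 5 stayed under 1 FPKM in every library. Fibroblast markers, of which 6 of 14 were tested, summed to 43.1 and 34.2 FPKM in shLuci and 50.5 and 38.9 FPKM in shTex10, with Col5a2 called higher, Col1a2 lower, and Col1a1 and Fbn1 among the 4 that did not pass. Leaving out 1 library at a time, the log2 change of Col5a2 ran from 0.34 to 0.43 and that of Col1a1 from 0.39 to 0.91. Primitive endoderm markers summed to 210 and 193 FPKM in shLuci and 320.2 and 314 FPKM in shTex10, mostly from Sparc, and Ttr was listed at 0 in all 4. Of the 6 tested, Sparc and Dab2 rose, Lama1 fell, and 3, Lamb1 among them, did not pass. Mesoderm markers summed to between 4.48 and 6.42 FPKM, and of the 2 tested, which both reached the filter only through shTex10, Mesp2 was called higher and Tbx20 did not pass. Neural markers summed to 121 and 104 FPKM in shLuci and 76.9 and 66.8 FPKM in shTex10, where Pax6, which reached the filter only through shLuci, and Tubb3 fell and Nefl and Nes rose. Of 8 genes of ES cell identity 7 fell, among them Tdgf1, Zfp42 (also on the list of regulators), Nanog and Pou5f1, and Sox2 did not pass, with summed levels of 2834 and 2684 FPKM in shLuci and 1803 and 1713 FPKM in shTex10, so the labelled cell type's markers were present in both groups. Whether such other cells were present, and their part in the rise of H19, Peg10 and their neighbours, was not tested.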

How the data were processed

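Poly(A) RNA of 4 CCE cultures, 2 shLuci and 2 shTex10, was read as 100-base single ends. The deposited values are FPKM, computed by the authors per library. Reads were handled with Cufflinks 2.1.1, TopHat2 2.0.10 and Bowtie2 2.1.0 on build mm9, per the submitters' processing notes. Options, annotation and strand setting: not given in the sources used here. Here rows sharing a gene name were summed, and genes with a mean of at least 1 FPKM were tested with limma 3.58.1 (R 4.3.3, pseudocount 1, trended variance prior, replicate number not in the model) and Benjamini-Hochberg adjustment over all 11883 genes at 0.05. The fit was also run on simulated data with independent noise and few changed genes. That setting is unlike these data, so the run does not bear on the calls. Unnamed rows stayed out. FPKM keeps no read totals, and counting intervals were therefore not computed.

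The members, the lists and the alternatives were chosen with earlier results of these data known. Members are named with their values; of the other lists, the 4 genes with the smallest p and Igf1r, Igf2bp1, Zfp57, Trim28, Dnmt1, Uhrf1, Dppa3 and Ctcf. Further genes, among them neighbours and overlapping transcripts, were named after their values were seen. Parental assignments are textbook knowledge. Promoters and microRNAs come from RefSeq tables of GRCm38.p6, while rows are placed on mm9. Alternatives covered pseudocounts, filters, scalings, variance models, a block on replicate number, taking only the highest row of a name, and leaving out each library.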

Additional observations from a re-analysis of the deposited data

How the results depend on the processing

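Counts are given as members higher and lower in shTex10, against 14 and 5 as reported. Fits without a single library leave 1 library in a group, which is then assumed to vary like the others. Their SE was nearly the same for unlike genes. Without shTex10 replicate 1 it was 0.17 for Igf2 and 0.17 for Col1a1, against 0.10 and 0.23 with all libraries. Only log2 changes are therefore given for these fits, although they enter the counts over all alternatives below. With the same sum over all rows the counts were 3 and 0 for the members, 4 and 1 for further imprinted genes, 0 and 1 for regulators, 1 and 1 for IGF genes, and 655 and 237 for all genes; errors grew, as the report gives. With the same sum over named genes 3 members, 3 further imprinted genes, 3 IGF genes and 1906 genes in all were lower, and under median scaling 3 IGF genes. At a mean of at least 5 FPKM fewer genes were tested: 2 further imprinted genes were higher and 3 lower, 3 IGF genes lower and 1292 genes in all higher. With the replicate number as a block (replicate block) 16 members were higher and 10 lower, 9 further imprinted genes lower, 4 regulators higher and 5709 genes in all lower. All 19 called members were called under the block, and 7 more. Deviations of same-numbered libraries correlated at 0.33 over genes, but the labels do not say what a number shares, so the block is no pairing. Over all alternatives, tested members were on the same side of the threshold in 415 fits, lost their call in 29 and gained one in 15, and no called member changed sign. FPKM keeps no depth, which limits statements on members below 1 FPKM.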
